A study of Mus musculus with 12 samples.

Results

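The difference between the effect of *Snx14* loss in cerebellum and its effect in cerebral cortex was described for every gene, from all 12 libraries of 12 in the series and all 55536 genes of 55536 in the files. The 4 groups were WT cerebellum, *Snx14*-KO cerebellum, WT cortex and *Snx14*-KO cortex, with 3 libraries each, and each of the 6 mice gave 1 library of each tissue. The mice were 1 month old C57BL/6J animals, and WT mice served as controls. The *Snx14*-KO mice carried a homozygous 1 bp deletion made with CRISPR/Cas9 that all cells of the body carry. The libraries were bulk RNA-Seq of dissected tissue, labelled as a mix of cell types, so fewer cells of a type and less RNA per cell cannot be told apart. For each gene, the log2 fold change of *Snx14*-KO over WT in cortex was subtracted from that in cerebellum, and this difference is called the interaction. A positive interaction is a larger log2 fold change in cerebellum. It was set beside the gene's cerebellum-to-cortex ratio in WT mice.

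SNX14 is a sorting nexin of the endoplasmic reticulum that works at contacts with lipid droplets, where fatty acids are stored as triglycerides. Its loss in people causes a recessive ataxia with early degeneration of the cerebellum. The cerebellar cortex is built mainly from granule cells and Purkinje cells, whereas the cerebral cortex holds excitatory projection neurons and many classes of peptide-releasing inhibitory interneurons, so genes that mark these neurons differ in level between the tissues.

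*Snx14* itself was at 63.9, 63.6 and 67.0 CPM (read pairs scaled to the same library total, normalized for library composition with edgeR's TMM method) in WT cerebella and at 10.4, 10.9 and 11.2 in *Snx14*-KO cerebella. In cortex, it was at 53.6, 55.1 and 59.8 CPM in WT and at 8.5, 7.95 and 7.69 in *Snx14*-KO mice. All *Snx14*-KO libraries lay below all WT libraries of their tissue. The interaction of *Snx14* was 0.22 (standard error 0.112, adjusted p = 0.931 in the quasi-likelihood test of edgeR), so the loss of its RNA was not shown to differ between the tissues. Counts on genes were 16672589 to 19887427 per library. The cerebellar markers *Gabra6* and *Cbln1* were at 482 to 691 and 399 to 644 CPM in the 6 cerebella and at most at 2.02 and 15.0 CPM in the 6 cortices. The cortical transcription factor *Tbr1* was at 160 to 176 CPM in the cortices and at most at 1.21 CPM in the cerebella.

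No gene passed the test of the interaction after adjustment over 19380 tested genes (0% called, quasi-likelihood test of edgeR, Benjamini-Hochberg adjustment). At an unadjusted p under 0.05, 769 genes had a larger log2 fold change in cerebellum (3.97% of tested genes) and 331 had a smaller log2 fold change there (1.71%). DESeq2 called 35 genes with a larger (0.181%) and 1 gene with a smaller log2 fold change in cerebellum (0.00516%) on the same counts. The median interaction over all tested genes was -0.004. In the same fit of 12 libraries, the comparison within cerebellum called 46 genes that rose (0.237%) and 4 that fell (0.0206%) in *Snx14*-KO mice, but a fit of the cerebellar libraries alone called 0 and 1 gene, and the cause of this loss was not tested. The comparison within cortex called 0 that rose (0%, with 389 at an unadjusted p under 0.05) and 2 that fell (0.0103%), which were *Snx14* and *Gm27694*. The 769 genes had a median log2 fold change of 0.85 in cerebellum and -0.13 in cortex, and the 331 genes of -0.24 and 0.18. A ratio of cerebellum to cortex was also taken within each mouse, on log2(CPM + 1). By this ratio, the 3 *Snx14*-KO mice lay above the 3 WT mice for 1084 of all tested genes (5.59%) and below them for 920 (4.75%). They lay above for 433 of the 769 genes and below for 256 of the 331 genes. Both sets were chosen for their p in the same libraries, so these 2 counts are a description.

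**Figure D1:**
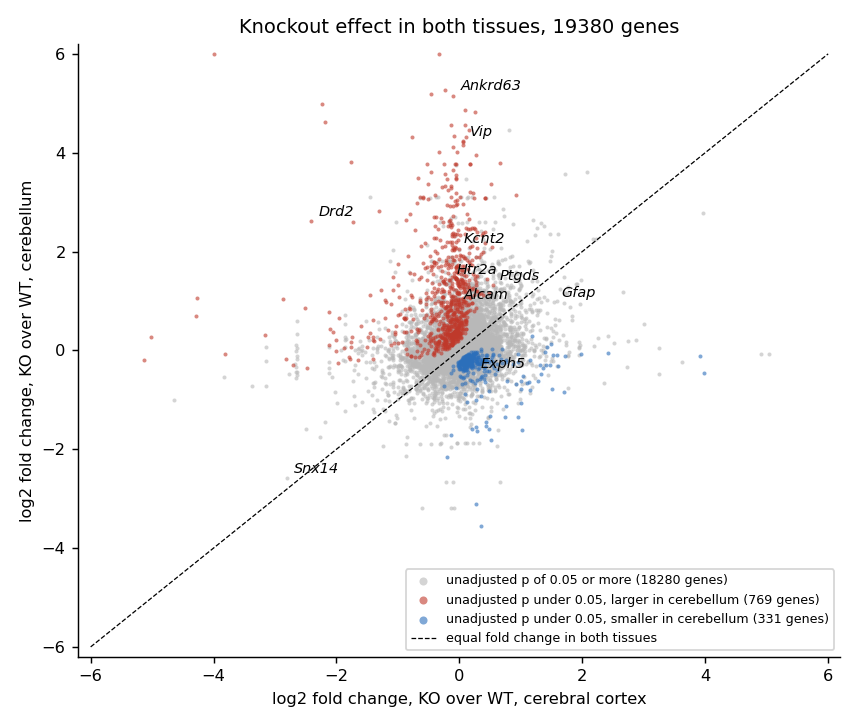
Log2 fold change of *Snx14*-KO over WT in cortex (horizontal) and in cerebellum (vertical) for the 19380 tested genes, with values past 6 drawn at 6. Colours mark unadjusted p under 0.05 for the interaction; the 769 genes above the dashed line of equal fold change rise mainly along the cerebellar axis.

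The 12 leading named genes with a positive interaction were lower in WT cerebellum than in WT cortex, at 0.0537 CPM (*Ankrd63* and *Slc38a4*) to 42.2 CPM (*Alcam*) in WT cerebella. *Kcnt2* (chromosome 1, 140246158 to 140612067 in GRCm38, plus strand), which encodes a sodium-activated potassium channel subunit, was at 0.334, 0.462 and 0.430 CPM in WT cerebella and at 1.96, 1.05 and 2.17 in *Snx14*-KO cerebella. In cortex it was at 49.1, 48.4 and 48.8 CPM in WT and at 44.0, 45.0 and 52.2 in *Snx14*-KO mice. The cerebellar groups did not overlap and the cortical groups did. The log2 fold change of *Kcnt2* was 2.07 in cerebellum (adjusted p = 0.0126) and -0.05 in cortex, and the interaction was 2.12 (standard error 0.318, adjusted p = 0.103 by the quasi-likelihood test and 4.26e-05 by DESeq2). Even so, the *Snx14*-KO cerebella reached only 2.15% to 4.44% of the mean level in WT cortex.

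*Ildr2* (chromosome 1, 166254139 to 166316823, plus strand), a member of the angulin family of immunoglobulin-domain membrane proteins, showed the smallest adjusted p by DESeq2. Its level was 8.89, 12.6 and 12.1 CPM in WT cerebella and 31.4, 22.5 and 31.6 in *Snx14*-KO cerebella, without overlap. In cortex, the values were 165, 152 and 175 CPM in WT and 162, 201 and 160 in *Snx14*-KO mice, which overlapped. The interaction was 1.26 (standard error 0.202, adjusted p = 0.103 by the quasi-likelihood test and 6.13e-06 by DESeq2). Of the exon bases of *Ildr2*, 11% are shared with another annotated gene, and read pairs there were counted for both.

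*Alcam* (chromosome 16, 52248996 to 52454074, minus strand), a cell adhesion molecule of growing axons, was at 37.7, 42.2 and 35.7 CPM in WT and at 71.1, 61.5 and 88.0 in *Snx14*-KO cerebella. Its cortical values were 166, 161 and 162 CPM in WT and 141, 171 and 162 in *Snx14*-KO mice. Here too the cerebellar groups stood apart and the cortical groups overlapped. The interaction of *Alcam* was 0.97 (standard error 0.160, adjusted p = 0.103 by the quasi-likelihood test and 1.78e-05 by DESeq2).

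*Htr2a* (chromosome 14, 74640840 to 74709494, plus strand), the serotonin 2A receptor, was at 1.00, 1.79 and 1.29 CPM in WT cerebella and at 3.49, 3.09 and 4.39 in *Snx14*-KO cerebella. In cortex, its level was 40.3, 50.9 and 47.8 CPM in WT and 39.1, 38.6 and 46.0 in *Snx14*-KO mice. The *Snx14*-KO cerebella were all above the WT cerebella, and the interaction was 1.60 (standard error 0.253, adjusted p = 0.103 by the quasi-likelihood test and 1.78e-05 by DESeq2). With the mouse as a replicate block, *Htr2a* had the adjusted p nearest to the threshold among the named genes, together with *Shox2* (0.0689 for both by edgeR).

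Genes were named if their symbol was no Gm number or Rik name, if they had a mean of at least 20 read pairs per library and if at most 20% of their exon bases were shared. Of the 12 such genes with the smallest p and a positive interaction, the remaining ones were *Stx1a*, *Slc38a4*, *Ankrd63*, *Pde1a*, *Tac1*, *Vip*, *Mal2* and *Npy1r*. *Stx1a* encodes syntaxin 1A of the synaptic release machinery, and *Slc38a4* an amino acid transporter. *Pde1a* is a calcium-dependent phosphodiesterase, *Mal2* a protein of vesicle traffic and *Npy1r* the Y1 receptor of neuropeptide Y, while *Tac1* and *Vip* encode the precursors of substance P and of vasoactive intestinal peptide. Their interactions ran from 0.89 for *Stx1a* to 5.26 for *Ankrd63*, with adjusted p of 0.146 to 0.167 in the quasi-likelihood test. As a description of genes chosen for their p, the highest WT cerebellum was below the lowest *Snx14*-KO cerebellum in all 12 (6.46% of all tested genes), and all 12 had a WT ratio below -2 on the log2 scale. The gene model *Gm37264*, outside this rule, had an interaction of 4.06 at a smaller unadjusted p (1.38e-05) than all of them but *Kcnt2*.

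Upstream sequence is shown for genes that stand for the main patterns and whose window holds no annotated exon: *Kcnt2* and *Ildr2* were higher in all 3 *Snx14*-KO cerebella, *Exph5* led the genes with a negative interaction, and *Vip* was highest in *Snx14*-KO replicates 1 and 3. Each sequence is the 120 bases before the RefSeq start on the strand of the gene (GRCm38.p6), with capitals at the motif TGACG, the core of the cAMP response element, searched on both strands. The windows are chr1:140245598-140245717 (plus strand), chr1:166254019-166254138 (plus strand), chr9:53301550-53301669 (plus strand) and chr10:5639098-5639217 (plus strand). For *Kcnt2*, the RefSeq start lies upstream of the gene start given above, so its window does not adjoin that gene start.
Kcnt2: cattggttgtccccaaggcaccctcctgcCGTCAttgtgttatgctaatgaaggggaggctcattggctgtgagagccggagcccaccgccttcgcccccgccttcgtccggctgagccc
Ildr2: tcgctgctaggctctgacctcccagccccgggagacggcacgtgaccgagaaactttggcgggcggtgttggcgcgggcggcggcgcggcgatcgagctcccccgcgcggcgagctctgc
Exph5: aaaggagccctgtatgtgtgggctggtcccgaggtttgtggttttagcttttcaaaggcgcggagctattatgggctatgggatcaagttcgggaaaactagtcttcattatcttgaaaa
Vip: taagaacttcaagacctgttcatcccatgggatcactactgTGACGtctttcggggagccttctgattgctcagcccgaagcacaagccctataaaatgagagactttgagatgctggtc
TGACG occurs in 11.7% of 32851 such windows and the full element TGACGTCA in 1.24%. It is present in the windows of *Kcnt2* and *Vip*, and its letters are not in those of *Ildr2* and *Exph5*.

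The *Snx14*-KO cerebella differed from each other in the level of these genes. *Vip* was at 3.01, 0.441 and 3.03 CPM in replicates 1, 2 and 3, against 0.0577 to 0.161 CPM in WT cerebella, which is 1 to 3 read pairs per library. *Tac1* was at 8.13, 1.38 and 8.72 CPM, against 0.483 to 0.635 in WT. Both peptide genes were therefore lowest in replicate 2 among the *Snx14*-KO cerebella, although still above WT.

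Gaps between these replicates were also seen for genes outside the 12. *Nrgn*, which encodes the postsynaptic calmodulin-binding protein neurogranin and is named here after its values were seen, was at 122, 9.15 and 117 CPM in *Snx14*-KO cerebella and at 6.17, 4.33 and 1.99 in WT cerebella. *Sst*, the somatostatin precursor, was at 34.3, 3.20 and 35.7 CPM, against 2.22 to 2.71 in WT. *Slc17a6*, the vesicular glutamate transporter of thalamic and brainstem neurons, was at 102, 23.3 and 105 CPM, against 27.2 to 30.3 in WT.
In these 3 genes, replicates 1 and 3 were close to each other and far above WT. Replicate 2 was above the WT cerebella for *Nrgn* and *Sst*, by far less, and below them for *Slc17a6*.

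The homeodomain gene *Shox2* was at 16.8, 0.0551 and 13.3 CPM in *Snx14*-KO cerebella, against 0.0556 to 0.115 in WT, and *Six3* was at 8.84, 0 and 9.37 CPM, against 0 to 0.322. *Lhx9* was at 19.6, 0.496 and 21.4 CPM and *Tcf7l2* at 62.4, 6.56 and 64.1 CPM, against at most 1.45 and 8.08 in WT. These transcription factors are known from neurons of the midbrain, the thalamus and other forebrain regions, and all 4 were chosen after values had been seen. All were high in replicates 1 and 3 and at the WT level in replicate 2. Genes of forebrain excitatory neurons were mixed. *Lhx2* was at 2.63, 0.110 and 3.90 CPM in *Snx14*-KO cerebella, against 0.0537 to 0.173 in WT, and *Rasgrf2* at 26.9, 5.51 and 31.0, against 4.08 to 6, while *Tbr1* was at 0.621, 1.21 and 0.325 CPM and *Emx1* at 0.191, 0.276 and 0.162 CPM in the *Snx14*-KO cerebella, within or near their WT ranges of 0.635 to 0.966 and 0.115 to 0.859. The part of tissue from other brain regions in these libraries was not tested.

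**Figure D2:**
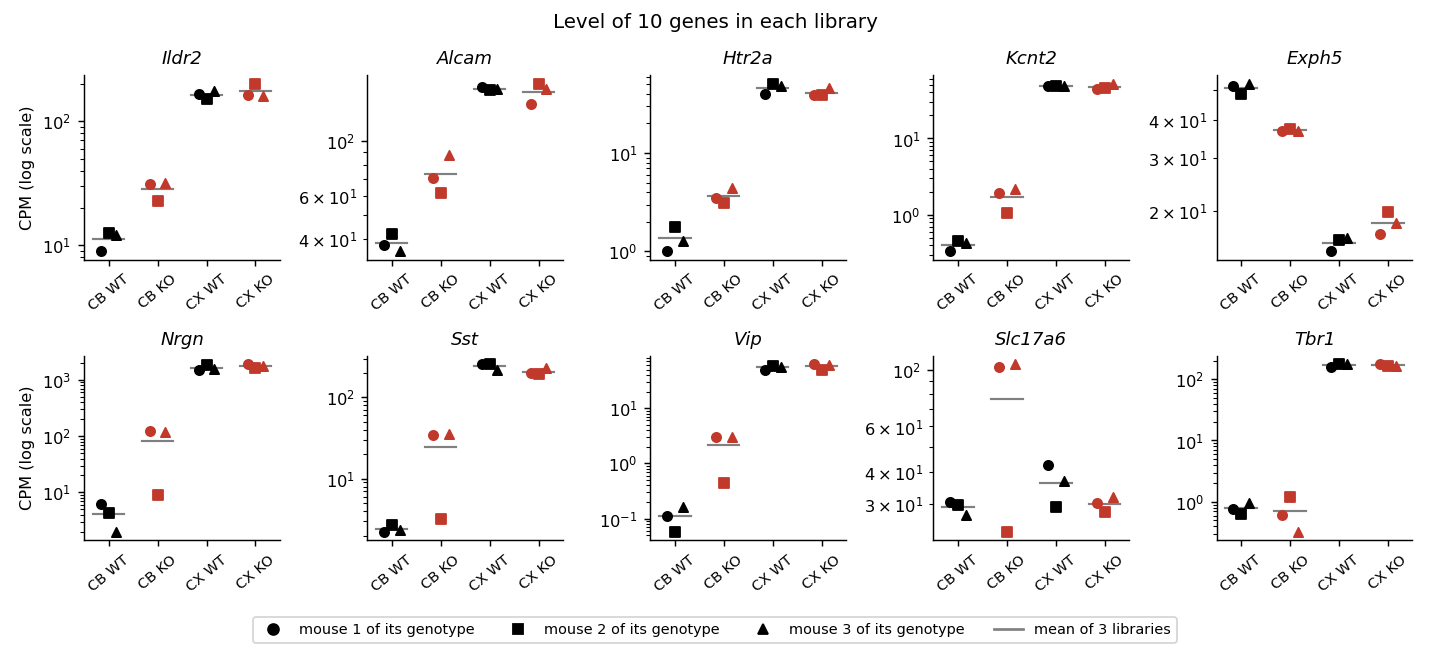
Level of 10 genes in each library in CPM on a log scale, with the symbol giving the mouse and the grey line the mean of 3 libraries (CB, cerebellum; CX, cortex). *Ildr2*, *Alcam*, *Htr2a* and *Kcnt2* are higher in all 3 *Snx14*-KO cerebella, while *Nrgn*, *Sst* and *Slc17a6* are far above WT in *Snx14*-KO replicates 1 and 3 only, and *Tbr1* stays at or below 1.21 CPM in all 6 cerebella.

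Across the 769 genes with a larger log2 fold change in cerebellum, *Snx14*-KO replicate 1 lay above all WT cerebella for 664 genes (86.3%), replicate 3 for 685 (89.1%) and replicate 2 for 415 (54.0%). Over all tested genes, the shares were 25.6%, 26.8% and 21.4%. The 769 genes were chosen on these same libraries, so their shares are a description. When cerebellar *Snx14*-KO replicate 2 was left out, the quasi-likelihood test called 251 genes with a larger (1.27%) and 6 with a smaller log2 fold change in cerebellum (0.0303%). When any other library was left out, it called at most 1. Of the genes called without replicate 2, 254 were also tested on all libraries. Replicate 2 exceeded every WT cerebellum in 71 of these 254, against 21.4% of all tested genes. It did so in 32 of the 35 genes that DESeq2 called on all libraries. Replicate 2 was itself part of that DESeq2 call, so the latter count is a description.

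The interaction varied with the tissue in which a gene is normally expressed. Of the tested genes, 2767 (14.3%) were at least 2-fold higher in WT cortex than in WT cerebellum, and these made up 536 of the 769 genes with a larger log2 fold change in cerebellum (69.7%). Within this class, 19.4% of genes had such an interaction and 1.05% had the opposite one. Of 2188 genes at least 2-fold higher in WT cerebellum, 1.60% had a larger and 4.71% a smaller log2 fold change in cerebellum. Among the 14425 genes between these limits, the shares were even, at 1.37% and 1.38%.

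The median interaction was 1.94 over the 104 genes with a WT ratio under -7 on the log2 scale, 1.38 over 192 genes from -7 to -5, 0.72 over 451 genes from -5 to -3 and 0.19 over 2020 genes from -3 to -1. It was -0.01 over 14425 genes from -1 to 1, -0.15 over 1764 genes from 1 to 3 and -0.19 over 296 genes from 3 to 5. The medians in cerebellum followed the same order, from 1.82 in the lowest class, while those in cortex stayed between -0.05 and 0.05. The WT libraries enter both the ratio and the interaction, with opposite sign, so a low WT count in cerebellum by chance raises the interaction as it lowers the ratio. With the mean of the WT and *Snx14*-KO ratios in place of the WT ratio, the medians were 0.23, 0.99, 0.72 and 0.14 for the same classes below -1, and the class over 5 turned from -0.12 to 0.34. By the *Snx14*-KO ratio, whose libraries enter the interaction with the same sign, 15.3% of cortex-enriched genes had a larger and 1.78% a smaller log2 fold change in cerebellum, while the order turned for cerebellum-enriched genes, at 4.60% larger and 3.16% smaller.

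Read against this mean ratio, the *Snx14*-KO cerebella separated again. For the 433 genes from -5 to -3, replicates 1 and 3 lay above all WT cerebella for 62.8% and 67.2% of genes, and replicate 2 for 28.4%. For the 129 genes over 5, replicates 1 and 3 lay below all WT cerebella for 37.2% and 52.7% of genes, and replicate 2 for 11.6%. In the *Snx14*-KO cortices, the share above WT in the class from -5 to -3 was 22.4% to 23.6%. In the 60 genes under -7, the shares above WT were 35%, 25% and 28.3% in the *Snx14*-KO cerebella and 20%, 33.3% and 35% in the *Snx14*-KO cortices, so replicates 1 and 3 did not stand out there.

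**Figure D3:**
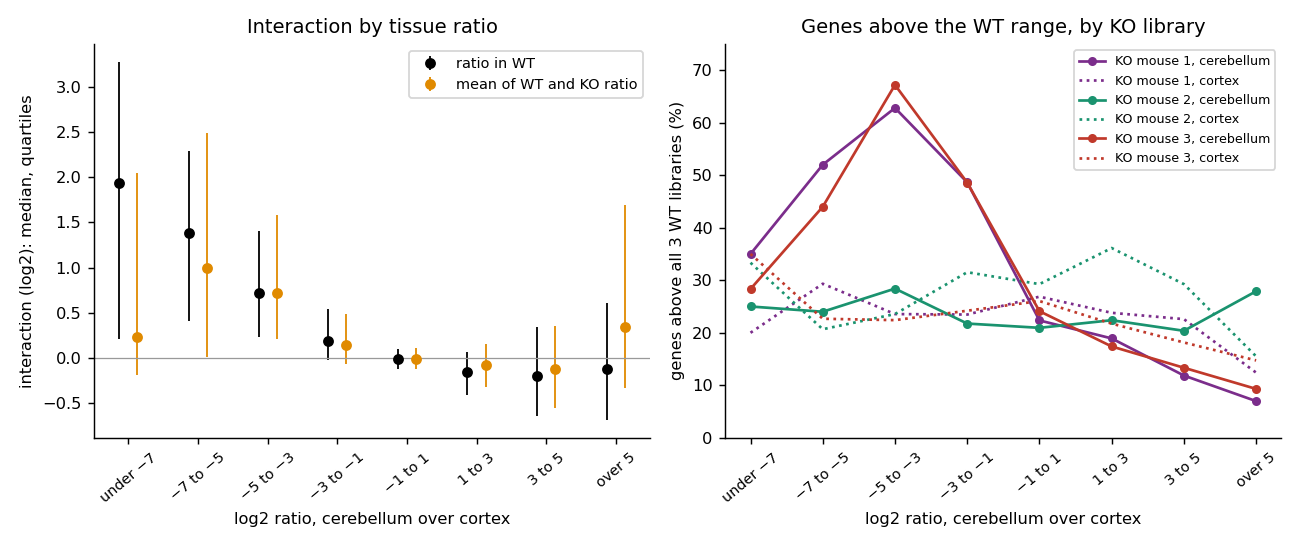
Left, median interaction with quartiles for genes grouped by their log2 cerebellum-to-cortex ratio, taken in WT mice (black) or as the mean of both genotypes (orange). Right, share of the genes in each class of the mean ratio that lie above all 3 WT libraries of the tissue, for each *Snx14*-KO library; cerebella of replicates 1 and 3 peak at 62.8% and 67.2%, while replicate 2 and the cortices show no such peak.

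Genes with a smaller log2 fold change in cerebellum moved less. *Exph5* (chromosome 9, 53301670 to 53377514, plus strand), which encodes the Rab27 effector exophilin 5, was at 51.6, 48.8 and 52.6 CPM in WT and at 36.6, 37.3 and 36.7 in *Snx14*-KO cerebella. In cortex it was at 14.8, 16.1 and 16.4 CPM in WT and at 16.8, 19.9 and 18.4 in *Snx14*-KO mice. All *Snx14*-KO libraries lay below WT in cerebellum and above WT in cortex, and *Exph5* fell in cerebellum by 0.47 on the log2 scale (adjusted p = 0.0292). Its interaction was -0.69 (standard error 0.115, adjusted p = 0.103 by the quasi-likelihood test and 0.00109 by DESeq2), and it was the only gene with a smaller log2 fold change in cerebellum that DESeq2 called. It kept its sign in each leave-one-out fit, from -0.75 to -0.63.

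The other 7 genes of this direction were *Sidt1*, *Dpysl4*, *Rtp1*, *Rps6ka1*, *Amer3*, *Hr* and *Atp5k*, with interactions from -1.79 for *Rtp1* to -0.41 for *Hr* and adjusted p of 0.325 to 0.427 by the quasi-likelihood test. *Rps6ka1* is a ribosomal S6 kinase, *Dpysl4* a collapsin response mediator protein, *Hr* a nuclear corepressor and *Atp5k* a subunit of the mitochondrial ATP synthase. *Sidt1* was at 19.6, 18.3 and 20.1 CPM in WT and 15.6, 16.7 and 17.0 in *Snx14*-KO cerebella, and at 56.1, 60.4 and 50.3 CPM in WT and 63.8, 71.6 and 67.9 in *Snx14*-KO cortices. Its groups stood apart in both tissues, in opposite directions. In cerebellum, the *Snx14*-KO libraries lay below all WT libraries for 7 of these 8 genes (6.14% of all tested genes), which were chosen for their p in the same libraries, with *Dpysl4* as the exception. Over all 331 genes with a smaller log2 fold change in cerebellum, replicates 1, 2 and 3 lay below the WT cerebella for 77.9%, 68.0% and 83.1%, against 23.4%, 25.2% and 29.4% of all tested genes, which is again a description of genes chosen on these libraries.

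Opposite log2 fold changes of at least 0.25 in each tissue had the smallest p, among genes that met the same conditions, for *Tac1*, *Shisa2*, *Nptx2*, *Necab2* and *Asic4*, with positive values in cerebellum and negative values in cortex. The cortical groups overlapped for *Tac1*, *Necab2* and *Asic4*. *Tac1* was at 17.1, 32.9 and 13.2 CPM in WT cortices and 13.3, 10.1 and 16.3 in *Snx14*-KO cortices, and the log2 ratio of the mean CPM was -0.67, or -0.19 without WT cortex 2, the library highest in striatal genes. *Shisa2*, which encodes a membrane protein that restrains Wnt and FGF receptors, was at 5.95, 5.37 and 5.48 CPM in WT and 7.36, 7.33 and 7.47 in *Snx14*-KO cerebella. In cortex it was at 2.60, 2.85 and 2.33 CPM in WT and 1.25, 1.70 and 1.55 in *Snx14*-KO mice. Neither tissue showed overlap, and the interaction was 1.18 (standard error 0.245, adjusted p = 0.190 by the quasi-likelihood test). *Nptx2*, a secreted pentraxin that clusters AMPA receptors, was at 2.56, 2.02 and 1.13 CPM in WT and 4.11, 3.20 and 4.87 in *Snx14*-KO cerebella, and at 61.4, 58.6 and 81.8 against 45.8, 58.2 and 46.7 CPM in cortex. The groups did not overlap in either tissue, although *Snx14*-KO cortex 2 came within 1 CPM of the lowest WT cortex, and the interaction was 1.52 (standard error 0.315, adjusted p = 0.190 by the quasi-likelihood test and 0.000365 by DESeq2).

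Lists of genes for signalling systems were then described by counts and medians. Over all genes, 3.97% had a larger and 1.71% a smaller log2 fold change in cerebellum at an unadjusted p under 0.05. Among cortex-enriched genes, at least 2-fold higher in WT cortex, these shares were 19.4% and 1.05%. At WT ratios from -5 to -3, 34.4% had a larger one. Cortex-enriched were 17 of 21 neuropeptide precursors, 4 of 4 muscarinic receptors, 9 of 12 serotonin receptors and 31 of 62 potassium channel subunits. The counts are to be read against the shares of that class. No member of any of the 36 lists passed after adjustment over all genes in the quasi-likelihood test. Of 21 neuropeptide precursors tested, 19 had a positive interaction, 10 of them at an unadjusted p under 0.05, with a median of 1.00 (0.81 in cerebellum and -0.07 in cortex) that was 0.66 without cerebellar *Snx14*-KO replicate 1 and 0.43 with mouse 2 as the only *Snx14*-KO mouse. The mean log2(CPM + 1) over these 21 genes was 1.36 to 1.49 in WT cerebella and 2.20, 1.61 and 2.05 in *Snx14*-KO replicates 1, 2 and 3. All 4 muscarinic acetylcholine receptors tested had a positive interaction, 3 at an unadjusted p under 0.05, with a median of 1.35 that was -0.09 with mouse 2 as the only *Snx14*-KO mouse. Their mean level in *Snx14*-KO cerebella was 2.35, 1.30 and 2.56, against 1.24 to 1.45 in WT.

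Among 12 serotonin receptors, 11 had a positive interaction, 4 at an unadjusted p under 0.05, and the median was 0.48. It ran from 0.22 without cerebellar *Snx14*-KO replicate 1 to 1.13 without WT cerebellum 3, and was 0.006 with mouse 2 as the only *Snx14*-KO mouse. Besides *Htr2a*, *Htr1a* was at 3.11, 0.276 and 5.96 CPM in *Snx14*-KO cerebella, against 0.173 to 0.278 in WT. *Htr1a* was thus within the WT range in replicate 2, whereas *Htr2a* was above it in all 3. Of 15 GABA-A receptor subunits, 12 had a positive interaction, 4 at an unadjusted p under 0.05. Their median was 0.17, and 0.07 to 0.33 with each library left out (lowest without *Snx14*-KO cortex 1, highest without WT cerebellum 2). Of 62 potassium channel subunits, 37 had a positive interaction, 16 at an unadjusted p under 0.05, and 2 reached it in the other direction. Their median was 0.10, with 0.03 without cerebellar *Snx14*-KO replicate 1 and -0.05 with mouse 2 as the only *Snx14*-KO mouse. The 18 ionotropic glutamate receptor subunits were split evenly, with 9 positive and a median of 0.02. Of the 15 immediate early genes, which neurons induce with activity, all had a positive interaction, but 2 reached an unadjusted p under 0.05. The medians of the list were 0.53 for the interaction, 0.19 in cerebellum and -0.40 in cortex. The median interaction was 0.09 without cerebellar *Snx14*-KO replicate 2 and 0.92 without WT cerebellum 1.

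Lists of regional neurons followed. All 12 striatal genes had a positive interaction, 7 at an unadjusted p under 0.05, with medians of 1.67 for the interaction, 0.34 in cerebellum and -0.70 in cortex. Their mean level was 5.37 in WT cortex 2 and 4.16 to 4.17 in the other 2 WT cortices, and the median was 0.93 without that library. The dopamine receptor *Drd2* was at 3.77, 15.8 and 3.36 CPM in WT cortices and 2.69, 0.768 and 0.894 in *Snx14*-KO cortices, and at 6.26, 0.551 and 6.23 CPM in *Snx14*-KO cerebella against 0.376 to 1.11 in WT. The part of dissection in these striatal differences was not tested.

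Of 10 midbrain and thalamus genes tested, a list added after *Shox2*, *Lhx9* and *Six3* had been seen, 8 had a positive interaction and 6 of them an unadjusted p under 0.05. These 3 genes are members of the list, so its values restate theirs. Without them, 5 of 7 genes had a positive interaction, 3 at an unadjusted p under 0.05, with a median of 0.29 and mean levels of 4.36, 3.51 and 4.40 in *Snx14*-KO cerebella, against 3.42 to 3.49 in WT. Of 18 forebrain excitatory neuron genes, 11 had a positive and 7 a negative interaction (median 0.28), 6 and 1 at an unadjusted p under 0.05. Those with the smallest p, *Lhx2*, *Bcl11b* and *Rasgrf2*, were high in cerebellar *Snx14*-KO replicates 1 and 3 only. Of 14 forebrain interneuron genes, 10 had a positive interaction and 4 an unadjusted p under 0.05. Their median was 0.93, and 0.18 without cerebellar *Snx14*-KO replicate 2. Of 7 hippocampal genes, 5 had a positive interaction, with a median of 1.03 that was 0.14 without WT cortex 1. With mouse 2 as the only *Snx14*-KO mouse, the medians were 0.75 for striatal, 0.21 for midbrain and thalamus, 0.15 for excitatory neuron, 0.48 for interneuron and 1.41 for hippocampal genes.

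Lists for neurons of the cerebellum itself were described next. Of 16 granule cell genes, 12 had a negative interaction, with medians of -0.32 for the interaction, -0.29 in cerebellum and 0.00 in cortex, and 3 reached an unadjusted p under 0.05 in that direction and 1 in the other. The latter was *Barhl1*, whose interaction of 5.30 goes with 0.584 CPM in WT cortex 1 against 0 to 0.0537 in the other 5 cortices. *Zic1*, a transcription factor of granule cells, was at 750, 717 and 628 CPM in WT and 498, 713 and 558 in *Snx14*-KO cerebella, which overlapped. In *Snx14*-KO replicates 1 and 3, 14 and 13 of the 16 granule cell genes lay below all WT cerebella, and in replicate 2 this held for 5. Over all tested genes, the shares below all WT cerebella were 23.4%, 25.2% and 29.4% in replicates 1, 2 and 3, so the count in replicate 2 was near this background. The 16 Purkinje cell genes had a median of -0.05, with 6 positive. At an unadjusted p under 0.05, 2 had a positive and 0 a negative interaction. The 2 were *Foxp2* and *Lhx1*, the latter at 0.584 CPM in WT cortex 1 and at most 0.0569 CPM in the other cortices. Of the 16 genes, 3, 1 and 13 lay below all WT cerebella in *Snx14*-KO replicates 1, 2 and 3. The first 2 counts were not above that background, and without replicate 3 the median turned to 0.08. With mouse 2 as the only *Snx14*-KO mouse, the medians were -0.06 for granule cell and 0.13 for Purkinje cell genes. The Purkinje genes *Calb1*, *Pcp2*, *Car8* and *Rgs8* had interactions of -0.15, 0.23, -0.21 and -0.05 (adjusted p = 1.00 by the quasi-likelihood test for each), and their *Snx14*-KO and WT cerebella overlapped. *Foxp2*, which is also expressed by neurons outside the cerebellum, was at 25, 12.9 and 26.5 CPM in *Snx14*-KO cerebella, against 8.38 to 12.9 in WT.

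**Figure D4:**
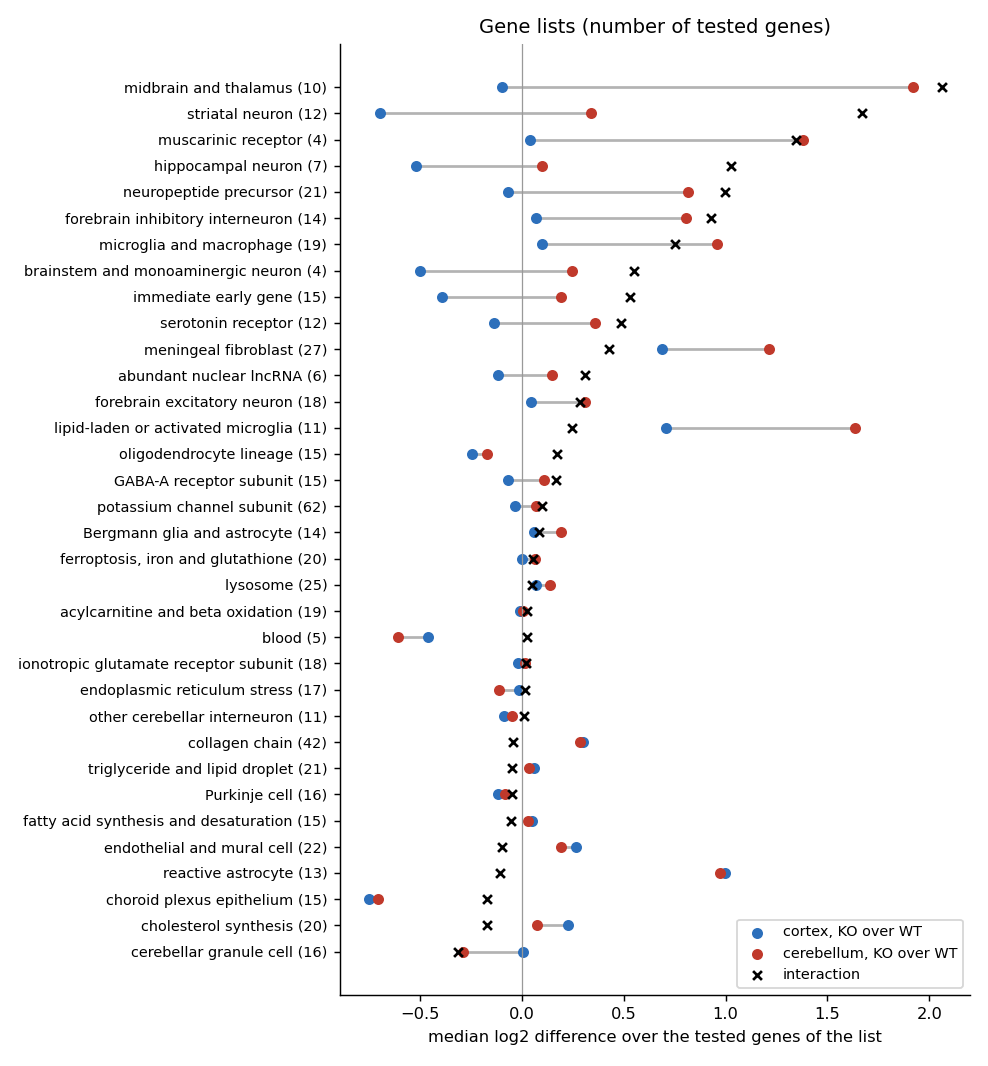
Median log2 fold change of *Snx14*-KO over WT in cortex (blue) and cerebellum (red), and median interaction (cross), over the tested genes of each list, with their number in brackets. The median interaction is taken over genes and need not equal the distance between the other points; it runs from -0.32 for granule cell genes to 2.06 for midbrain and thalamus genes.

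Glial and meningeal lists differed between single libraries. Of 19 microglia and macrophage genes, 18 had a positive interaction, 3 at an unadjusted p under 0.05, with medians of 0.96 in cerebellum and 0.10 in cortex. Their mean level was 3.68, 3.89 and 4.90 in *Snx14*-KO cerebella and 3.34 to 3.73 in WT cerebella, and the median interaction was 0.75, or 0.16 both without cerebellar *Snx14*-KO replicate 3 and with mouse 2 as the only *Snx14*-KO mouse. The lysosomal glycoprotein gene *Cd68* was at 5.21, 6.29 and 27.8 CPM in *Snx14*-KO cerebella, against 2.15 to 4.04 in WT, and at 8, 14.6 and 8.11 in *Snx14*-KO cortices, against 6.20 to 9.45. Replicate 3 in cerebellum and replicate 2 in cortex were the highest libraries. For 11 genes of lipid-laden or activated microglia, the medians were 1.64 in cerebellum, 0.71 in cortex and 0.25 for the interaction, which turned to -0.45 without cerebellar *Snx14*-KO replicate 3. *Trem2*, a lipid-sensing receptor of microglia, was at 7.22, 9.32 and 29.0 CPM in *Snx14*-KO cerebella, against 5.48 to 7.85 in WT, and its interaction was 0.98 (adjusted p = 0.959 by the quasi-likelihood test). Those of the lysozyme gene *Lyz2* and the apolipoprotein gene *Apoe* were 0.11 and 0.14 (adjusted p = 1.00 for both).

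The 13 reactive astrocyte genes had medians of 0.97 in cerebellum and 1.00 in cortex, and 5 of them had a positive interaction (median -0.11). *Gfap*, the intermediate filament of astrocytes, was at 276, 309 and 293 CPM in WT and 373, 442 and 912 in *Snx14*-KO cerebella. In cortex, it was at 198, 147 and 174 CPM in WT and 201, 1047 and 262 in *Snx14*-KO mice. The groups did not overlap in either tissue, the interaction was -0.57 (adjusted p = 1.00 by the quasi-likelihood test), and without *Snx14*-KO cortex 2 it turned to 0.55. The complement gene *C4b* had the same pattern, at 23.7, 26.5 and 43.0 CPM in *Snx14*-KO cerebella and 13.5, 75.5 and 12.8 in *Snx14*-KO cortices, and its interaction of -0.56 turned to 0.82 without that library. The median of the reactive astrocyte list was 0.75 without that library and -1.37 with mouse 2 as the only *Snx14*-KO mouse.

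Of 27 meningeal fibroblast genes, 23 had a positive interaction, with medians of 1.21 in cerebellum, 0.69 in cortex and 0.43 for the interaction. Their mean level was 4.22 to 4.38 in *Snx14*-KO cerebella, above the WT range of 3.09 to 3.71 in every mouse, and 3.16, 4.10 and 3.04 in *Snx14*-KO cortices, against 2.80 to 3.17 in WT. Only *Snx14*-KO cortex 2 lay above the WT cortices, and without it the median interaction was 0.88, against 0.22 without *Snx14*-KO cortex 3 and -0.32 with mouse 2 as the only *Snx14*-KO mouse. The proteoglycan gene *Dcn* was at 48.8, 46.9 and 48.0 CPM in *Snx14*-KO cerebella, against 25.2 to 39.4 in WT, and at 16, 33.1 and 16.8 in *Snx14*-KO cortices, against 10.3 to 22.8, with an interaction of 0.15 (adjusted p = 1.00 by the quasi-likelihood test). *Ptgds*, the prostaglandin D2 synthase of the meninges and choroid plexus, was at 683, 715 and 468 CPM in WT and 1567, 1459 and 1632 in *Snx14*-KO cerebella, and at 445, 345 and 433 against 563, 652 and 563 CPM in cortex. It was higher in *Snx14*-KO mice in both tissues, and its interaction was 0.78 (standard error 0.193, adjusted p = 0.396 by the quasi-likelihood test and 0.0261 by DESeq2). The 15 choroid plexus genes had medians of -0.71 in cerebellum, -0.75 in cortex and -0.17 for the interaction, with 6 positive. Their summed level was 94.6, 2868 and 7759 CPM in WT cerebella, a range that held all 3 *Snx14*-KO cerebella (2157, 3338 and 1043 CPM), and the median interaction was -0.75 without WT cerebellum 1 and 1.16 without WT cerebellum 3. All 15 oligodendrocyte genes had a positive interaction with a median of 0.17, and none reached an unadjusted p under 0.05. The median was 0.03 without WT cerebellum 3 and 0.04 without *Snx14*-KO cortex 2, and 0.55 with mouse 2 as the only *Snx14*-KO mouse.

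**Figure D5:**
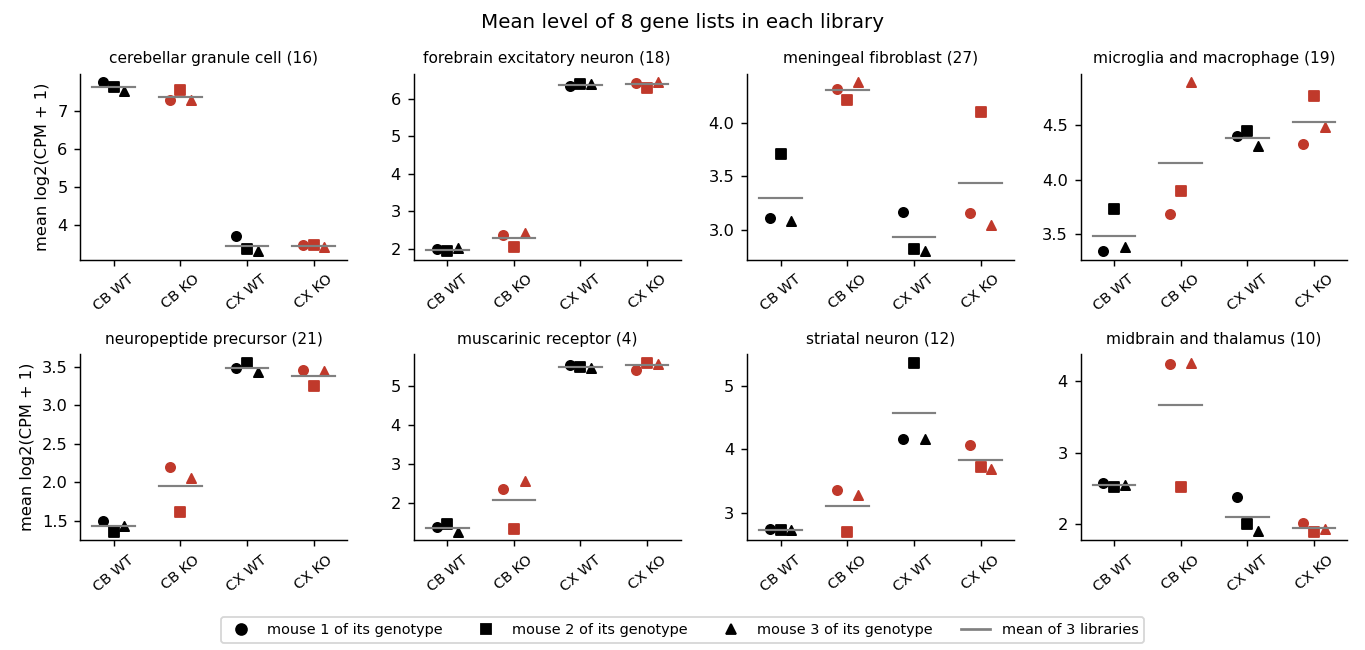
Mean log2(CPM + 1) over the tested genes of 8 lists in each library, with the symbol giving the mouse. Midbrain and thalamus, muscarinic and neuropeptide genes are highest among cerebella in *Snx14*-KO replicates 1 and 3, meningeal genes are raised in all 3 *Snx14*-KO cerebella (4.22 to 4.38) and in *Snx14*-KO cortex 2 (4.10), and microglial genes peak in *Snx14*-KO cerebellum 3 (4.90).

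Genes of lipid metabolism showed little tissue difference. Of 20 cholesterol synthesis genes, 19 had a negative interaction, with medians of 0.07 in cerebellum, 0.22 in cortex and -0.17 for the interaction. The last ran from -0.27 without *Snx14*-KO cortex 1 to -0.07 without WT cerebellum 1. *Acat2*, which starts the pathway, was at 44.6, 44.1 and 42.5 CPM in WT and 57.0, 60.7 and 50.3 in *Snx14*-KO cortices, without overlap, and at 38.7, 34.9 and 30.4 against 32.3, 35.3 and 36.1 CPM in cerebellum, with overlap. It was the only cholesterol synthesis gene at an unadjusted p under 0.05 (interaction -0.36, adjusted p = 0.695 by the quasi-likelihood test). The medians were -0.06 over 15 genes that make and desaturate fatty acids, 0.02 over 19 genes of acylcarnitine metabolism and beta oxidation, -0.05 over 21 triglyceride and lipid droplet genes, 0.05 over 25 lysosome genes and 0.01 over 17 endoplasmic reticulum stress genes, and none of these genes reached an unadjusted p under 0.05. With each library left out, these 5 medians stayed between -0.12 and 0.11. Of 20 ferroptosis, iron and glutathione genes, 12 had a positive interaction, with a median of 0.05. Only *Slc7a11* reached an unadjusted p under 0.05 (interaction 0.56). It rose in cerebellum (log2 fold change 0.80, adjusted p = 0.0329 by the quasi-likelihood test).

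The fatty acid binding protein gene *Fabp5* was at 69.6, 55.7 and 55.9 CPM in WT and 84.1, 96.3 and 95.9 in *Snx14*-KO cerebella. In cortex, it was at 93.0, 97.6 and 90.1 CPM in WT and 104, 99.0 and 97.9 in *Snx14*-KO mice. The groups stood apart in both tissues, by less in cortex. *Fabp5* rose in cerebellum (log2 fold change 0.61, adjusted p = 0.0161), and its interaction was 0.51 (standard error 0.124, adjusted p = 0.396 by the quasi-likelihood test and 0.0594 by DESeq2). Its level in *Snx14*-KO cerebella was 89.9%, 103% and 103% of the mean in WT cortex, against 59.6% to 74.4% in WT cerebella.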

How the data were processed

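RNA of both tissues from 3 WT and 3 *Snx14*-KO mice was sequenced as paired reads. The authors trimmed the reads, used STAR for alignment to GRCm38 and featureCounts to count pairs per gene, without a strand option and with pairs that overlapped several genes counted for each. The deposited values are raw counts per gene. Features with no Ensembl gene identifier (0.0506% to 0.0632% of counts per library) were left out.

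Counts were normalized with TMM, filtered with filterByExpr (19380 of 55536 genes kept) and fitted with edgeR's quasi-likelihood model (edgeR 4.0.16, limma 3.58.1, R 4.3.3) over all 12 libraries with a mean for each tissue and genotype. The interaction was a contrast of the 4 means, with Benjamini-Hochberg adjustment over all tested genes and a threshold of 0.05. The WT ratio was WT cerebellum over WT cortex in the same fit. The scripts were tested on simulated counts. Among genes with a symbol that is no Gm number or Rik name, a mean of at least 20 read pairs and at most 20% of exon bases shared, those named were the 12 with the smallest p and a positive interaction, the 8 with a negative one and the 5 leading genes with opposite effects of at least 0.25. Genes the study names, the 3 leading members of each list described and genes called where 10 or fewer were called in a direction were named too. Members and lists were chosen with earlier results of these data known, and exceptions are named as such.

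The labels give the mouse of each library. This pairing was used in the ratio per mouse and in the fits with the mouse as a block or random effect. The main test did not use it and took the 12 libraries as independent. Deviations of the 2 tissues of a mouse from their group means correlated at 0.104, 0.104 and 0.0765 in WT and 0.288, 0.0301 and 0.0826 in *Snx14*-KO mice, against -0.212 to 0.132 between different mice of a genotype. With the mouse as a replicate block, 0 genes were called by edgeR (smallest adjusted p 0.0689), as without it. Alternatives were DESeq2 1.42.0, other size factors and filters, robust dispersions, voom with the mouse as a random effect or with library weights, fits of each tissue alone, other limits for the ratio, and leaving out each library or mouse. Results for some named genes are not reported here.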

Additional observations from a re-analysis of the deposited data

Results flagged for a closer look

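For 7 named genes, all 3 *Snx14*-KO libraries lay on one side of the 3 WT libraries in cerebellum and on the other side in cortex. Of all tested genes, 72 (0.372%) showed this, and the 7 were named for a small interaction p in the same libraries, so their count is a description. The interactions, as log2 differences, were -0.69 for *Exph5*, -0.53 for *Sidt1*, -1.79 for *Rtp1*, -0.53 for *Amer3* and -0.41 for *Hr*, which were lower in *Snx14*-KO cerebella and higher in *Snx14*-KO cortices. They were 1.18 for *Shisa2* and 1.52 for *Nptx2*, with the opposite directions. In edgeR's quasi-likelihood test of the difference, the adjusted p was 0.103, 0.325, 0.407, 0.417 and 0.417 for the first 5 genes and 0.190 for each of the other two, so none passed. *Rtp1* was at 2.33, 2.48 and 2.04 CPM in WT and 1.77, 1.87 and 1.30 in *Snx14*-KO cerebella, and at 0.584, 0.268 and 0.285 against 0.938, 0.878 and 1.07 CPM in cortex.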

How the results depend on the processing

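Genes called for a larger log2 fold change in cerebellum numbered 35 with DESeq2, 3 with robust dispersions, 373 without a filter on low counts, 0 to 251 with each library left out, 242 without *Snx14*-KO mouse 2 and 1 without WT mouse 1, against 0. For the smaller log2 fold change, they numbered 1, 0 and 45 under the first 3 settings, 0 to 6 with each library left out (6 without cerebellar *Snx14*-KO replicate 2), 7 without *Snx14*-KO mouse 2 and 3 when only that *Snx14*-KO mouse was kept, against 0. Counts at an unadjusted p under 0.05 rose to 1398 and 554 without the filter. Without the filter, the prior degrees of freedom of the fit went from 6.06 to infinity and the genes tested from 19380 to 34466, and the part of each was not tested. With the mouse as a replicate block, 0 genes were called in either direction.

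In cerebellum, 46 genes rose and 4 fell, against 0 and 1 with cerebellar libraries alone, 766 and 142 without the filter, and 4 to 417 and 1 to 35 with each library left out (4 without cerebellar *Snx14*-KO replicate 3 or WT replicate 3, 417 and 35 without cerebellar *Snx14*-KO replicate 2). In cortex, 0 rose and 2 fell, against 1 that fell with cortical libraries alone, 108 and 109 without the filter, and 1 to 3 that fell with each library left out. Of cortex-enriched genes, 30.5% had a larger and 0.460% a smaller log2 fold change in cerebellum at a ratio limit of 2 on the log2 scale, and 17.7% a larger one with the mean ratio. Of cerebellum-enriched genes, 2.40% had a larger and 6.48% a smaller one at that limit, and 2.81% a larger and 4.05% a smaller one with the mean ratio. By the *Snx14*-KO ratio, the shares were 15.3% and 1.78% of cortex-enriched and 4.60% and 3.16% of cerebellum-enriched genes.

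The *Snx14*-KO ratio, the fits of each tissue alone and the fit that kept *Snx14*-KO mouse 2 as the only *Snx14*-KO mouse, whose single libraries were assumed to vary like the other groups, were chosen after seeing the data. The sign of the interaction turned for 6 named genes. *Dcn* was at -0.47 with *Snx14*-KO mouse 2 as the only *Snx14*-KO mouse, at -0.24 to 0.57 with each library left out, and at -0.049, -0.019 and -0.38 without *Snx14*-KO mice 1 and 3 and WT mouse 1. *Lyz2* was at -0.82 with that mouse alone, at -0.33 to 0.82 with each library left out, and at -0.58 and -0.11 without *Snx14*-KO mouse 3 and WT mouse 1. *Rgs8* was at -0.13 to 0.0879 with each library left out and at 0.00464 without *Snx14*-KO mouse 3. Without *Snx14*-KO mouse 2, *Pcp2* was at -0.12, *Gfap* at 0.71 and *C4b* at 0.92. With each library left out, *Gfap* was at -1.07 to 0.55 and *C4b* at -0.95 to 0.82, and with voom library weights *C4b* was at 0.17. The cause was not tested for any of these changes.

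DESeq2's size factors in edgeR, a minimum mean of 50 read pairs, voom with the mouse as a random effect and voom with library weights each left the calls of the interaction at 0. With 3 mice per genotype and midbrain, thalamic, striatal, meningeal or choroid plexus genes that differ between libraries of a group, differences under the spread of these libraries were not detectable. All p-values rest on the spread between these mice.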
